A study of Glycine max with 12 samples.

Results

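Clark 18a and Clark 8 are soybean (Glycine max) lines with black-saddled, otherwise yellow seeds. Transcript levels in the future yellow region of the immature coat were compared between them. The comparison took every library labelled as yellow region, which gave 6 of the 12 libraries in the series, 3 of Clark 18a and 3 of Clark 8. Clark 18a has the alleles i-i and k1, and Clark 8 has i-k and K1. The lines therefore differ at both the I and the K1 locus, and the part of each locus in a difference cannot be told apart. Both lines were grown in a greenhouse and harvested at 100 to 200 mg fresh weight of the whole seed. The coats were freed of the cotyledons and cut into yellow and black parts, lyophilized and used for sequencing of polyadenylated RNA. The labels call the repeats biological without naming their plants, so a p-value reflects the spread of these libraries, which may be technical. In such bulk tissue, fewer cells of a type and less RNA per cell cannot be told apart.

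Yellow soybean seed coats owe their lack of pigment to small RNAs that arise from a cluster of chalcone synthase (CHS) genes on chromosome 8 and silence CHS throughout the coat. CHS is the first committed enzyme of flavonoid synthesis, from which anthocyanins and procyanidins are made. Argonaute proteins bind small RNAs and carry out such silencing, and K1 is linked to Argonaute5 (AGO5) in the title of the series. The allele i-i restricts pigment to the hilum, i-k restricts it to the saddle, and a recessive k1 lets a saddle form outside the hilum in coats that i-i would otherwise keep yellow.

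Levels are given as RPKM, the hits on a transcript scaled by its length and by the library total. Differences are Clark 18a minus Clark 8 of log2(RPKM + 1), a scale on which low genes show smaller changes than their ratios. A gene was called at a Benjamini-Hochberg adjusted p under 0.05 in limma, over the 30775 genes that reached an RPKM of 1 in at least 3 of the 12 libraries. The yellow libraries held between 89505760 and 170339599 hits in Clark 18a and between 85217283 and 192296346 hits in Clark 8, with repeat 3 the smallest in each line.

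The repeat 3 libraries stood apart. Across the genes tested, repeat 3 of Clark 18a correlated at 0.98 with repeat 3 of Clark 8, but at 0.93 and 0.94 with repeats 1 and 2 of its own line (Pearson's r across genes, which are not independent replicates). Repeats 1 and 2 correlated at 0.97 within Clark 18a and at 0.98 within Clark 8. The lines differed by at least 1 on the log2 scale at 1961 genes in the repeat 1 pair (6.37%) and at 1967 genes in the repeat 2 pair (6.39%), against 263 genes in the repeat 3 pair (0.855%). Both repeat 3 libraries carry library numbers close to each other and far from those of repeats 1 and 2. The main results are therefore given with and without repeat 3, and the part of the library set in them was not tested.

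AGO5 was lower in the yellow region of Clark 18a. It was read as Glyma.11G190900, an identifier assigned from memory that failed a check of its place on the chromosome against RefSeq. It had 0.810, 0.949 and 1.66 RPKM in repeats 1 to 3 of Clark 18a, against 8.58, 9.59 and 4.68 RPKM in repeats 1 to 3 of Clark 8. The groups did not overlap, and repeat 3 held the highest value of Clark 18a and the lowest of Clark 8. The means were 1.14 ± 0.45 RPKM in Clark 18a and 7.62 ± 2.59 RPKM in Clark 8 (SD, n = 3 each), a 6.70-fold higher mean in Clark 8. The log2 difference was -1.98 (SE 0.27, limma adjusted p = 0.0209). By repeat it was -2.40, -2.44 and -1.10, so the repeat 3 pair showed the same direction at a smaller size. Without repeat 3 the difference was -2.42 (adjusted p = 0.000147). In a fit of the 6 yellow libraries alone, with fewer degrees of freedom, it was not called (adjusted p = 0.127). Nor was it called when repeat 1 or 2 of yellow Clark 18a was left out (limma adjusted p = 0.111 and 0.138). The same held without repeat 1 or 2 of yellow Clark 8 (limma adjusted p = 0.118 and 0.136). Over all fits that left out 1 library, called or not, its log2 difference kept between -2.26 and -1.81.

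In the black saddle of the same lines AGO5 differed by -0.85 (adjusted p = 0.75). The yellow difference minus the black difference was -1.13, which did not pass (SE 0.38, interaction adjusted p = 1), so the data do not show that the AGO5 difference depends on the region.

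**Figure D1:**
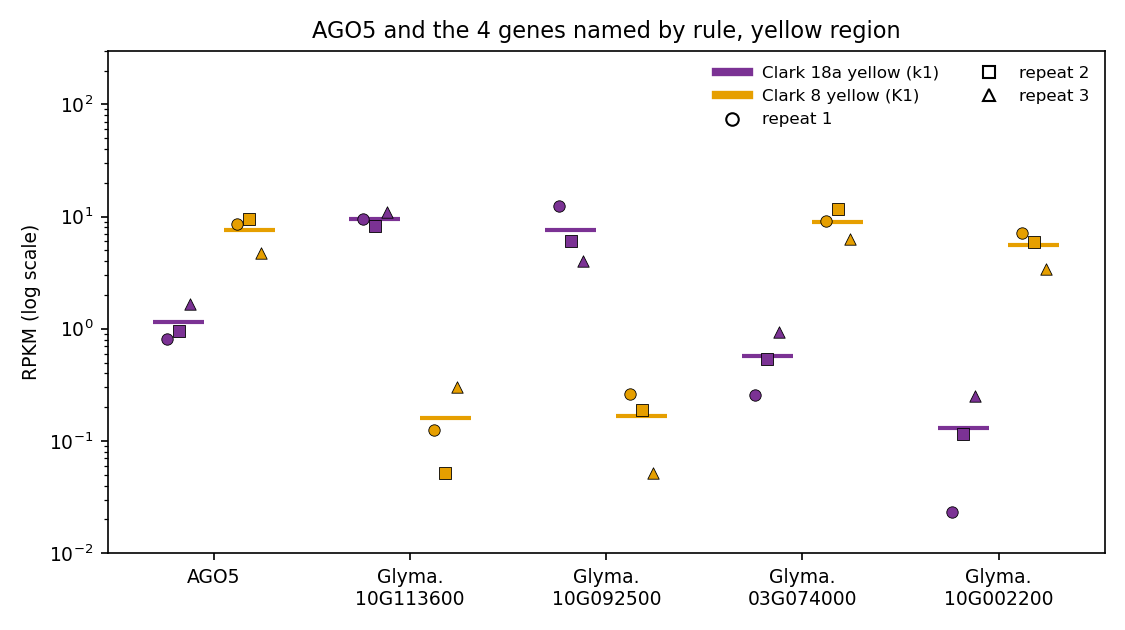
RPKM on a log axis in the yellow region for AGO5 and for the 2 largest rises and 2 largest falls among genes called in the fit of all 12 libraries and in every fit that left out 1 library; symbols are repeats, lines are group means. In all 5 genes the 3 Clark 18a libraries lie wholly above or wholly below the 3 Clark 8 libraries. All 5 were called in a fit of these same libraries, so the separation is not added support.

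Across all genes, 127 of 30775 were called (0.413%), of which 33 were higher in Clark 18a (0.107%) and 94 were lower (0.305%). The higher genes had a median log2 difference of 1.03 in size, between 0.65 and 3.18. The lower genes had a median size of 1.18, between 0.66 and 3.11. A size of at least 2 was reached by 20 genes, 7 higher and 13 lower. At none of the 127 did the RPKM of the 2 lines overlap. They were chosen by a small p in these same libraries, so this is not added support. In 65 of the 127 the higher of the 2 group means was below 5 RPKM. By another measure, 15958 of all 30775 genes tested reached 5 RPKM in at least 3 of the 12 libraries. Among the lower genes, 7 fell into 3 sets whose values moved in near-constant ratio between libraries. Whether these are copies that share hits was not tested, so their single values are uncertain. Counting each set once left 123.

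The table does not pair its identifiers with gene names, so genes chosen by size are given by identifier. Glyma.10G113600 was higher in Clark 18a in every library, with 9.42, 8.19 and 11.04 RPKM in Clark 18a against 0.124, 0.052 and 0.302 RPKM in Clark 8. Its log2 difference was 3.18 (SE 0.18, limma adjusted p = 6.36e-05), it was 3.21 in the repeat 3 pair alone, and without repeat 3 it was 3.17 (adjusted p = 0.000493). Glyma.10G092500 had 12.4, 6.10 and 3.99 RPKM in Clark 18a, against 0.260, 0.191 and 0.052 RPKM in Clark 8. Its log2 difference was 2.75 (SE 0.28, limma adjusted p = 0.00297), with 2.25 in the repeat 3 pair and 3.00 without repeat 3 (adjusted p = 0.00152). Both genes were chosen from fits that used repeat 3, so their difference in the repeat 3 pair is not an independent check. For Glyma.10G092500 the difference was 3.42, 2.58 and 2.25 in repeats 1 to 3.

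Glyma.03G074000 had 0.257, 0.539 and 0.933 RPKM in Clark 18a, against 9.07, 11.6 and 6.28 RPKM in Clark 8. Its log2 difference was -2.65 (SE 0.22, limma adjusted p = 0.000913), with -1.91 in the repeat 3 pair and -3.01 without repeat 3 (adjusted p = 0.000512). Glyma.10G002200 had 0.023, 0.116 and 0.252 RPKM in Clark 18a, against 7.17, 5.95 and 3.44 RPKM in Clark 8. Its log2 difference was -2.49 (SE 0.20, limma adjusted p = 0.000541), with -1.82 in the repeat 3 pair and -2.82 without repeat 3 (adjusted p = 0.000124). For both genes, as for AGO5, repeat 3 was the highest library of Clark 18a and the lowest of Clark 8. In the 6 yellow libraries alone Glyma.10G113600 was called (limma adjusted p = 0.00237). Glyma.10G092500 (0.0928), Glyma.03G074000 (0.0554) and Glyma.10G002200 (0.0554) were not called there.

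The number of genes called rested on which libraries entered the fit. Without repeat 3 of all groups limma called 3636 genes (11.8%), 1926 higher in Clark 18a (6.26%) and 1710 lower (5.56%), and these held all 127. With the repeat number as a block the count was 208 (0.676%), of which 88 were higher (0.286%) and 120 lower (0.39%), and 109 of the 127 were among them. In the 6 yellow libraries alone 3 genes were called (0.00975%), and with the library set as a term 343 (1.11%). Leaving out 1 library at a time gave between 14 and 509 genes. The count was 17 without yellow Clark 18a repeat 1, 15 without repeat 2 and 509 without repeat 3, and it was 14 without yellow Clark 8 repeat 1, 14 without repeat 2 and 421 without repeat 3. It was 132, 46 and 188 without black Clark 18a repeats 1, 2 and 3, and 37, 22 and 64 without black Clark 8 repeats 1, 2 and 3. Of the 127, 12 were called in every one of those 12 fits, 4 higher and 8 lower in Clark 18a.

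The repeat 3 pair offered a look at the genes called from repeats 1 and 2 in libraries that had not chosen them. Of the 1926 genes higher in Clark 18a without repeat 3, 1255 had the same sign in the repeat 3 pair (65.2%). Of the 1710 lower genes, 1203 did (70.4%). Among all genes tested the same sign was found for 56.3% of those above 0 in the mean of repeats 1 and 2, and for 56.2% of those below 0. The sizes were far apart. The higher genes had a median log2 difference of 0.85 in repeats 1 and 2 and of 0.08 in repeat 3, and the lower genes had -0.81 and -0.12. A same-way difference of at least 1 in repeat 3 was met by 19 of the higher genes (0.987%) and by 71 of the lower genes (4.15%), against 0.371% and 0.855% of all genes above and below 0. Genes taken by size alone, at least 1 above or below 0 in the mean of repeats 1 and 2, had the same sign in repeat 3 in 62.7% and 75% and reached 1 the same way in 2.51% and 10.3%. The genes taken by size had medians of 1.31 and -1.31 in repeats 1 and 2, larger than those of the called genes. The sets were not matched on size, so their shares cannot show whether calling added to size.

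**Figure D2:**
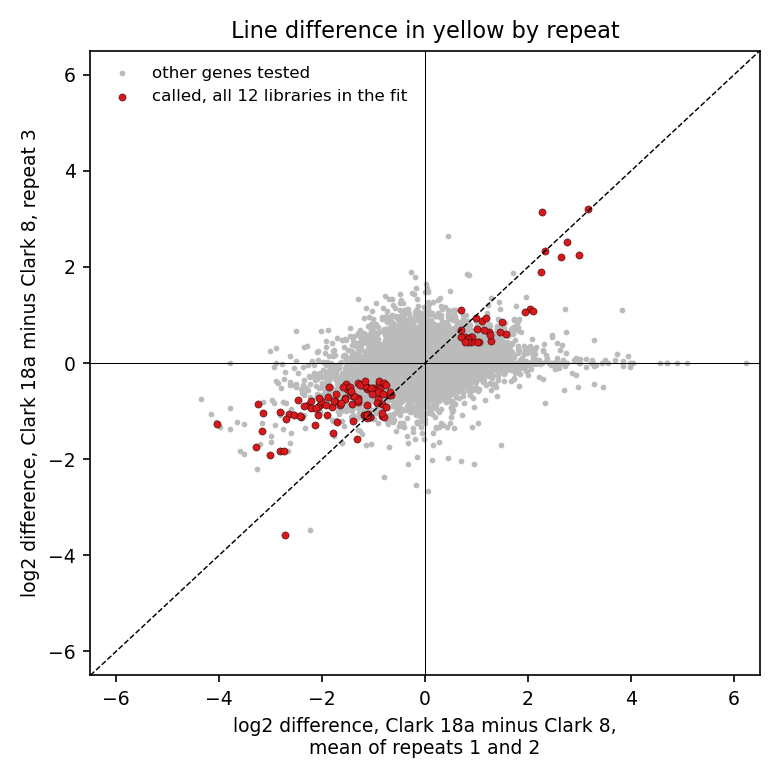
Each point is 1 of the 30775 genes tested; the x axis is the log2 difference between the lines (Clark 18a minus Clark 8) averaged over repeats 1 and 2, the y axis the same difference in repeat 3, and the dashed line marks equal values. The 127 called genes (red) lie in the quadrants of equal sign because the fit used all 3 repeats. Most are flatter than the dashed line: in 101 of them the repeat 3 difference was smaller than both others. Over all genes tested, repeat 3 differences were also less spread (SD 0.264, against 0.543 in repeat 1 and 0.552 in repeat 2).

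The first principal component of the yellow libraries (47.4% of the variance) set repeats 1 and 2 of Clark 18a, at -50.2 and -54.9, apart from repeat 3 of Clark 18a at 13.4 and from Clark 8 at 34, 30.4 and 27.3. The second component (32.7%) held both repeat 3 libraries at its upper end, at 41.0 in Clark 18a and 39.3 in Clark 8. The third repeat of Clark 18a thus lay nearer to Clark 8 than to its own line on the leading axis.

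CHS transcripts are the target of the silencing. The 8 CHS members on chromosome 8, which share near-identical sequence, were summed, since hits on single copies cannot be assigned with certainty. The sum was 20.2, 23.0 and 31.4 RPKM in repeats 1 to 3 of Clark 18a, against 44.1, 40.6 and 26.0 RPKM in repeats 1 to 3 of Clark 8. Repeats 1 and 2 were lower in Clark 18a and repeat 3 was higher, so the groups overlapped. The log2 difference was -0.54 and did not pass (SE 0.23, limma adjusted p = 0.346). Without repeat 3 it was -0.94 and passed (adjusted p = 0.0215), and by repeat it was -1.09, -0.79 and 0.26.

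CHS7 and CHS8 are the members outside that cluster which supply most CHS transcript in pigmented coats. Their summed level was 67.6, 62.6 and 42.7 RPKM in Clark 18a, against 67.3, 83.1 and 27.6 RPKM in Clark 8. The groups overlapped, and the lowest library of each line was repeat 3. The log2 difference was 0.07 (SE 0.40, limma adjusted p = 0.972). Of all 13 CHS members tested, of 14 listed, limma called none (0.413% over all genes), and 6 had an unadjusted p under 0.05, which 4115 of all genes tested had (13.4%). Their median log2 difference was -0.18, with 8 below 0 and 5 above, beside -0.02 over all genes tested. Without repeat 3, 6 of the 13 were called, all lower in Clark 18a, where 5.56% of all genes were. These 6 were among the 8 near-identical copies on chromosome 8, so shared hits may count 1 signal several times, and 0 of the 5 members elsewhere were called.

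In the future black saddle the chromosome 8 sum was 27.9, 39.5 and 39.3 RPKM in Clark 18a, against 159.9, 161.1 and 167 RPKM in Clark 8, a log2 difference of -2.18 (limma adjusted p = 0.00308). The groups did not overlap there. The difference in yellow minus that in black was 1.64 and did not pass (interaction adjusted p = 0.481).

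**Figure D3:**
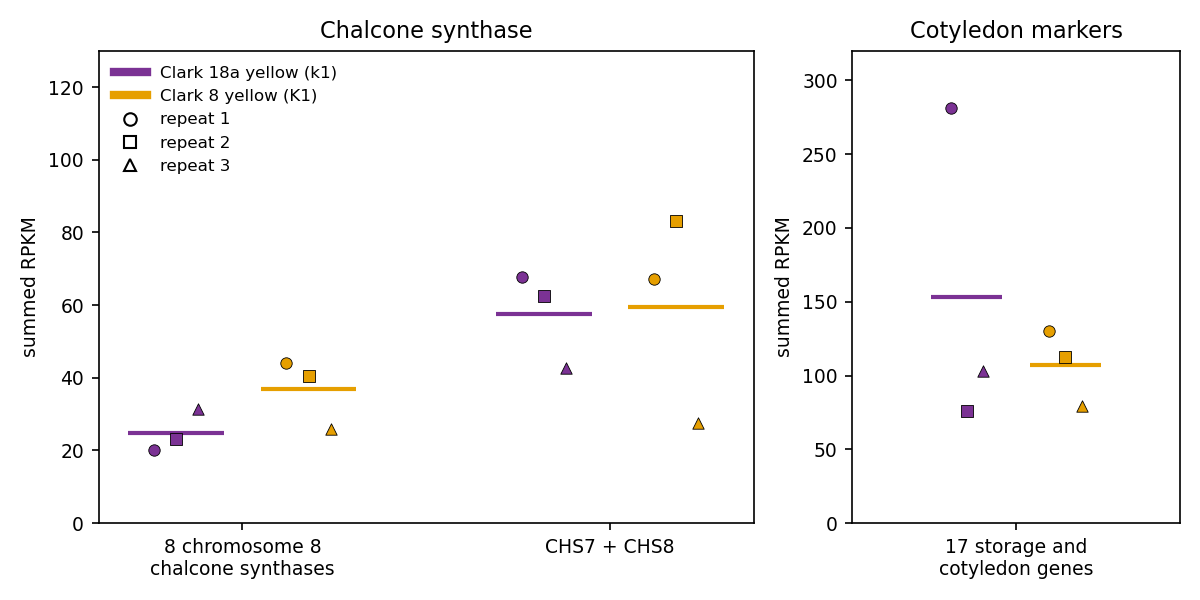
Summed RPKM by library in the yellow region for the 8 chromosome 8 chalcone synthases, for CHS7 plus CHS8, and for 17 storage and cotyledon genes; symbols are repeats and lines are group means, with axes from 0. The chromosome 8 sum of Clark 18a is below that of Clark 8 in repeats 1 and 2 and above it in repeat 3, and repeat 1 of Clark 18a has the highest cotyledon sum, 280.9 RPKM.

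The enzymes upstream of CHS were phenylalanine ammonia-lyase (PAL), which starts phenylpropanoid synthesis, and cinnamate 4-hydroxylase, the next step. None of their 9 members tested, of 10 listed, was called by limma (0.413% over all genes). Of the 9, 3 had an unadjusted p under 0.05 (13.4% over all genes). Below 0 lay 7 of the 9, and 16493 of all 30775 genes tested. PAL members went both ways. Glyma.19G182300 had 2.05, 3.07 and 4.76 RPKM in Clark 18a, against 7.21, 9.83 and 4.12 RPKM in Clark 8, so repeat 3 ran against repeats 1 and 2. Its log2 difference was -0.89 (limma adjusted p = 0.204), and -1.42 without repeat 3 (adjusted p = 0.00879). Glyma.10G209800 had 27.2, 21.2 and 15.3 RPKM in Clark 18a, against 14.6, 13.6 and 11.6 RPKM in Clark 8, with no overlap. Its log2 difference was 0.61 (limma adjusted p = 0.225), and 0.73 without repeat 3 (adjusted p = 0.0287). A further PAL member, Glyma.20G180800, had 27.7, 22.0 and 20.8 RPKM in Clark 18a, against 19.1, 18.7 and 14.9 RPKM in Clark 8, and its difference of 0.40 was not called with or without repeat 3.

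The 11 flavonoid and anthocyanin genes tested, of 14 listed, had a median difference of -0.02, beside -0.02 over all genes tested. Of the 11, 3 had an unadjusted p under 0.05 (13.4% over all genes), and limma called none (0.413% over all genes). A gene for chalcone isomerase (CHI), which closes the ring of the chalcone, came nearest. This CHI gene, Glyma.20G241500, had 3.67, 3.64 and 4.11 RPKM in Clark 18a, against 8.01, 7.19 and 5.31 RPKM in Clark 8. All 3 libraries of Clark 18a were below all 3 of Clark 8. The log2 difference was -0.69 (SE 0.14, limma adjusted p = 0.076), and -0.88 without repeat 3 (adjusted p = 0.00634). The other CHI gene tested, Glyma.20G241700, stood at higher levels and did not share this difference. It had 24.5, 19.9 and 37.8 RPKM in Clark 18a, against 28.0, 17.9 and 33.1 RPKM in Clark 8. Its log2 difference was 0.05 (limma adjusted p = 0.978).

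Levels of the later enzymes differed widely between genes. Flavanone 3-hydroxylase (F3H, Glyma.02G048400), which makes dihydroflavonols, had 398, 409 and 525 RPKM in Clark 18a, against 240, 355 and 493 RPKM in Clark 8. Its difference was 0.34 (limma adjusted p = 0.759), or 0.47 without repeat 3 (adjusted p = 0.415), and each line held its highest value in repeat 3. Dihydroflavonol reductase (DFR), which leads to anthocyanins and procyanidins, was measured as Glyma.14G072700 at 89.5, 106 and 145 RPKM in Clark 18a, against 70.7, 66.4 and 119 RPKM in Clark 8. The second DFR gene, Glyma.17G252200, had 10.7, 15.9 and 10.9 RPKM in Clark 18a, against 2.82, 9.01 and 9.62 RPKM in Clark 8. Neither DFR gene was called, with differences of 0.43 and 0.84 (limma adjusted p = 0.635 and 0.371), or 0.50 and 1.18 without repeat 3 (adjusted p = 0.17 and 0.141).

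UGT78K1, a glucosyltransferase of anthocyanidins in black soybean coats, was low. It had 1.73, 1.56 and 1.74 RPKM in Clark 18a, against 0.688, 0.838 and 1.31 RPKM in Clark 8. Its difference of 0.47 was not called (limma adjusted p = 0.324) and passed without repeat 3 at 0.59 (adjusted p = 0.0265). Isoflavone synthase IFS2, on the branch to isoflavones, had 4.39, 2.202 and 2.81 RPKM in Clark 18a, against 8.19, 7.79 and 4.38 RPKM in Clark 8. The highest library of Clark 18a just exceeded the lowest of Clark 8, and the difference of -0.91 was not called with repeat 3 (limma adjusted p = 0.365) or without it (adjusted p = 0.0688).

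**Figure D4:**
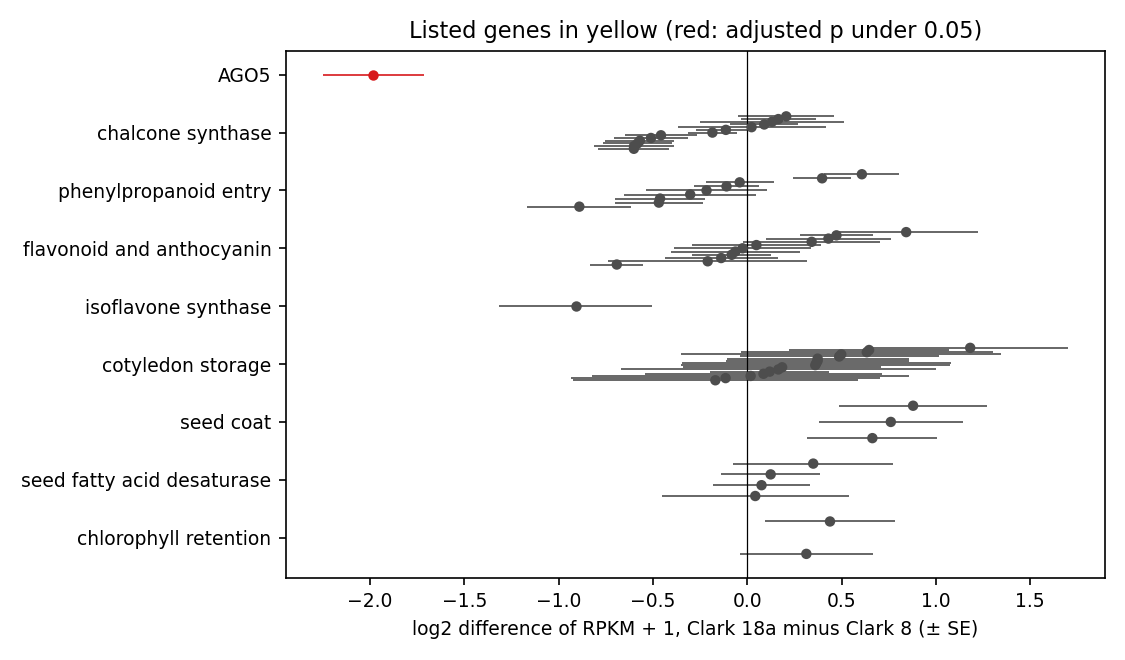
Log2 difference between the lines (Clark 18a minus Clark 8, on RPKM + 1) with its standard error for each listed gene that was tested, grouped by list. AGO5 at -1.98 is the 1 gene of the 60 called; the CHS and PAL genes spread to both sides of 0, and the 3 seed coat genes lie between 0.66 and 0.88.

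Of the genes that mark the coat, SWEET10a and SWEET10b were present at high levels and Ep at lower levels. SWEET10a and SWEET10b are sugar transporters that pass sugar from the coat to the embryo. SWEET10a had 161.2, 336 and 332 RPKM in Clark 18a, against 102, 117 and 239 RPKM in Clark 8. SWEET10b had 360, 679 and 678 RPKM in Clark 18a, against 225, 296 and 508 RPKM in Clark 8. The groups overlapped for both, although Clark 18a was higher in each of the 3 repeat pairs. Their differences were 0.88 and 0.76 (limma adjusted p = 0.364 and 0.421), or 1.08 and 0.93 without repeat 3 (adjusted p = 0.0948 and 0.163). Ep, the seed coat peroxidase, had 23.9, 27.4 and 22.7 RPKM in Clark 18a, against 14.8, 12.4 and 18.9 RPKM in Clark 8, with no overlap. Its difference of 0.66 was not called (limma adjusted p = 0.438), nor was its 0.87 without repeat 3 (adjusted p = 0.26). Of these 3 coat genes, 1 had an unadjusted p under 0.05 (13.4% over all genes).

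D1 and D2, the stay-green genes whose loss keeps chlorophyll in ripe seeds, were not called by limma (0.413% over all genes). Of them, 0 had an unadjusted p under 0.05 (13.4% over all genes). D1 had 9.60, 21.1 and 18.4 RPKM in Clark 18a, against 11.7, 9.73 and 16.3 RPKM in Clark 8. D2 had 7.94, 17.9 and 14.6 RPKM in Clark 18a, against 8.56, 7.22 and 12.4 RPKM in Clark 8. The repeat 1 pair ran against the others in both. Without repeat 3 their differences were 0.39 and 0.55 (limma adjusted p = 0.599 and 0.412).

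Storage protein genes mark the cotyledon, from which the coat was separated. The 17 genes on this list summed to 280.9, 75.7 and 103 RPKM in Clark 18a, against 130, 112 and 79.7 RPKM in Clark 8, and 1 of them was at 0 in all libraries. None of the 16 tested was called by limma (0.413% over all genes), and 1 had an unadjusted p under 0.05 (13.4% over all genes). Beside 14280 of all 30775 genes tested, 14 of the 16 lay above 0, with a median difference of 0.36. By repeat pair the median was 1.03, -0.445 and 0.511, so the repeat 2 pair ran the other way. Glyma.20G148200 and Glyma.20G146200 had near-equal RPKM in every library, as did Glyma.20G148300 and Glyma.20G148400. Whether they share hits was not tested, so the count, median and sum may hold 1 signal several times. Among the 16, the glycinin gene Glyma.19G164900 had 8.90, 1.86 and 1.45 RPKM in Clark 18a, against 1.04, 1.02 and 0.443 RPKM in Clark 8. Its difference was 1.18 (limma adjusted p = 0.356). This sum was highest in repeat 1 of Clark 18a and lowest in repeat 2 of Clark 18a, so the lines overlapped, and its part in the differences between the lines was not tested. The seed fatty acid desaturases, 4 tested of 5 listed, had log2 differences between 0.04 and 0.35. Limma called none of them (0.413% over all genes), and 0 had an unadjusted p under 0.05 (13.4% over all genes). Over all lists, 1 of the 60 genes tested, AGO5, was called (0.413% over all genes). Without repeat 3, 2 were higher in Clark 18a and 9 lower, where 6.26% and 5.56% of all genes were, and 6 of the 9 were the chromosome 8 CHS copies.

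By the chromosome number in the identifier, the called genes were spread over all 20 chromosomes. Chromosome 10 held the most, 16 of 1661 genes tested (0.963%), 7 higher and 9 lower in Clark 18a, beside 0.413% over all genes. It also held 5 of the 12 genes called in every fit that left out a library, 3 higher and 2 lower. Chromosome 8 followed with 14 of 2114 (0.662%), and chromosome 19 had the fewest, 1 of 1439 (0.0695%). Among the unplaced scaffolds 2 of 196 genes were called (1.02%).

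In identifier order, the genes tested were cut into 621 blocks of at most 50. None was called in 517 blocks, 1 in 87, 2 in 13 and 3 in 4. The 4 blocks with 3 called genes were 2 on chromosome 8 and 2 neighbouring blocks on chromosome 10. One of those on chromosome 8 holds the CHS cluster, but no CHS member was among its called genes. The block with AGO5 held AGO5 as its 1 called gene. Blocks rank otherwise by size of difference. In 2 neighbouring blocks on chromosome 13, 19 and 12 genes had a log2 difference of at least 1 in size, and 0 were called. In the blocks with 3 called genes, 3 and 5 genes on chromosome 8 and 1 and 4 on chromosome 10 reached that size.

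**Figure D5:**
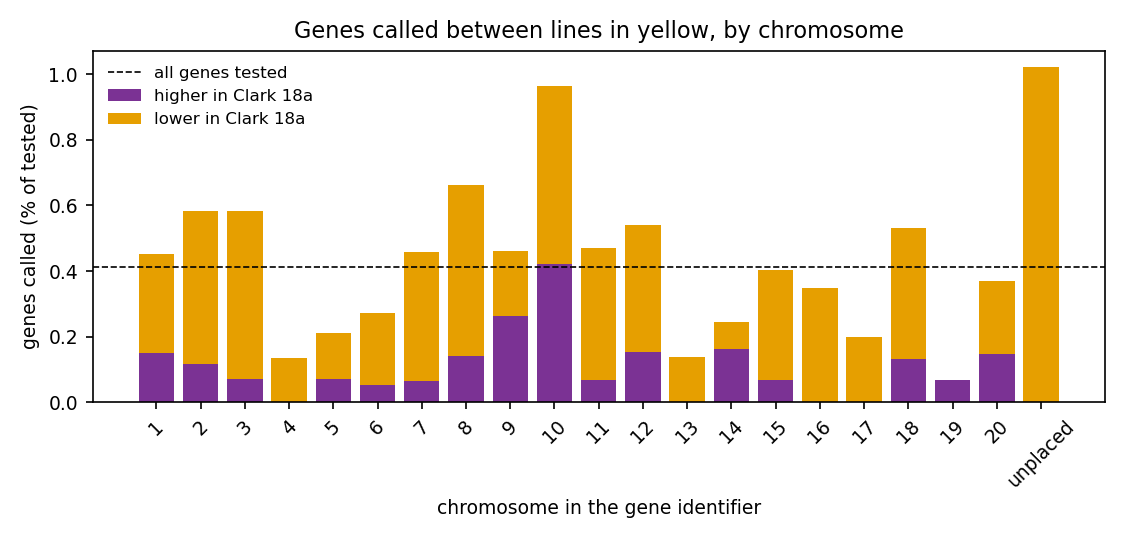
Percent of the genes tested that were called between the lines in the yellow region, by the chromosome in the gene identifier; bar segments are genes higher (purple) and lower (orange) in Clark 18a, and the dashed line is the 0.413% over all genes. Chromosome 10 reaches 0.963%, and the bar for unplaced scaffolds rests on 2 genes.

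Of the 127 genes called in yellow, 11 (8.66%) were also called between the lines in the black saddle, 4 higher and 7 lower in Clark 18a. They were 44% of the 25 genes called there (0.0812% of those tested). A test of whether the line difference itself depended on the region called 5 genes (0.0162%). At an unadjusted p under 0.05 there were 767 of 30775, a smaller share than the 0.05 that unaffected genes would give. With the replicate block limma called none, with 1405 at an unadjusted p under 0.05, also a smaller share than 0.05. Leaving out 1 library at a time gave between 0 and 7 genes called.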

How the data were processed

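The authors deposited RPKM values of 88647 transcript models, which belong to 56044 genes. Reads were aligned with Bowtie 1, per the submitters' processing notes; the genome build, annotation, treatment of multiple hits and strandedness were not given in the sources used here. At low values, 43256 to 57777 models a library, RPKM times cDNA length gave whole hits (within 0.05), and hits computed with this step were summed for the library totals.

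The model with the longest cDNA stood for its gene. Genes below an RPKM of 1 in all but 2 or fewer libraries were dropped, and log2(RPKM + 1) was fitted in limma 3.58.1 (R 4.3.3) with an intensity trend, 1 mean per group and all 12 libraries sharing 1 spread. The 2 CHS sums entered the same fit. Tests are two-sided; exact permutation of 3 against 3 libraries cannot give a p below 0.1. The fit was also run on simulated hits that held no repeat or library set effect, so that run says nothing about repeat 3.

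Same-numbered yellow repeats of the lines deviated together (correlations of 0.33, 0.15 and 0.40 across genes, although repeat 1 of Clark 18a with repeat 2 of Clark 8 gave 0.29), so the repeat number was also fitted as a block; the labels do not say what a number shares. Other alternatives were the library set as a term, fits without libraries, another pseudocount and filter, other normalizations, array weights, voom on recovered hits, and the model with the highest level.

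Members and lists were chosen with earlier results of these data known. The rule for named genes took the listed genes and the 2 largest rises and falls among genes called in every fit that left out a library. Gene names rest on recollection, because no table used here pairs identifiers with names. The planned check by protein length could not be made. Instead each was given a RefSeq symbol, also from recollection. For 67 of 75 a gene of that symbol (assembly Glycine_max_v4.0) lay on the same chromosome within 3 percentage points of gene order. The symbol was not always the printed name: it was SWEET39 for SWEET10a, SWEET24 for SWEET10b, SGR2 for D1 and SGR1 for D2. For AGO5 the RefSeq gene lay on chromosome 11 but failed that place check, 11.8 points away, and the other 7 unchecked genes are not named. Sequences were not used here.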

Additional observations from a re-analysis of the deposited data

Results flagged for a closer look

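The line difference in the yellow region minus that in the black saddle passed limma's interaction test for 5 genes, on the log2(RPKM + 1) scale. It was -2.98 for Glyma.03G074000 (adjusted p = 0.0286) and -2.49 for Glyma.10G002200 (adjusted p = 0.0286). In the black saddle these genes differed between the lines by 0.33 and 0.0013. It was -1.56 for Glyma.02G002100 (adjusted p = 0.0483), which had 0.012, 0.055 and 0.095 RPKM in the yellow region of Clark 18a, against 2.68, 2.1 and 1.55 RPKM in that of Clark 8.

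For the other 2 genes Clark 18a was lower by more in the black saddle. The value was 1.54 for Glyma.11G073700 (adjusted p = 0.0286), with 1.00, 1.39 and 0.808 RPKM in the yellow region of Clark 18a against 2.80, 3.03 and 2.28 RPKM in that of Clark 8. It was 1.80 for the CHS member Glyma.08G109400 (adjusted p = 0.0434), whose hits may be shared with its near-identical neighbours. This member had 2.24, 2.14 and 3.44 RPKM in yellow Clark 18a, against 3.31, 3.03 and 2.29 RPKM in yellow Clark 8. In the black saddle it had 2.15, 2.65 and 2.91 RPKM in Clark 18a, against 12.1, 12.1 and 13.1 RPKM in Clark 8. No interaction was called with the replicate block.

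CHS11 (Glyma.01G091400) and Ep (Glyma.09G022300) were higher in Clark 18a in all 3 yellow pairs and lower in all 3 black pairs. Their interactions of 0.68 and 1.18 did not pass (adjusted p = 1 each). CHS11 was below 1 RPKM in every yellow library, and its repeat 3 pair there was nearly equal, at 0.291 RPKM in Clark 18a and 0.284 RPKM in Clark 8. The share of all genes with opposite signs in every pair is not given here.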

How the results depend on the processing

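The count of 127 genes called between the lines was 3 with the 6 yellow libraries only (also with the replicate block there), 208 with the replicate block, 343 with the library set as a term, 3636 without repeat 3, 35 with a pseudocount of 0.1, 200 without a filter, 12 with a minimum RPKM of 5, 73 after quantile normalization and 7319 with array weights (14 to 509 leaving out 1 library). The adjusted p of AGO5 was 0.127 in the 6 yellow libraries and 0.232 there with the block (0.00518 to 0.138 leaving out 1 library). The chromosome 8 CHS sum passed without repeat 3 (0.0215) and with array weights (0.00427); leaving out 1 library gave 0.113 to 0.874. The CHS7 and CHS8 sum changed sign without repeat 3 (-0.20, adjusted p = 0.76), with array weights (-0.27, adjusted p = 0.494) and without 3 single libraries (adjusted p 0.595 to 1). The listed genes called, 1 in the report, were 0 in the 6 yellow libraries with or without the block, 2 with the library set, 11 without repeat 3 and 18 with array weights (0 to 2 leaving out 1 library). The interaction count of 5 was 0 with the replicate block, a pseudocount of 0.1, a minimum RPKM of 5 or voom, 1 without repeat 3 or after quantile normalization, 10 without a filter and 28 with array weights (0 to 7 leaving out 1 library). The interaction could not be fitted in 6 yellow libraries. The causes were not tested. Fitted with all 12 libraries, the block changed no other call among the results named. In the 6 yellow libraries with the block, Glyma.10G092500, Glyma.03G074000, Glyma.10G002200 and Glyma.02G002100 (adjusted p = 0.184 each) and Glyma.11G073700 (0.214) were not called. With 3 libraries a side, the standard errors given limit which differences could be resolved.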
